A study of Mus musculus with 12 samples.

Results

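Axon guidance and neural adhesion genes were described in 3 cell populations sorted from the dentate gyrus of adult mice. Members were genes of the deposited table with a mouse symbol of the semaphorin, plexin, neuropilin, Eph receptor, ephrin, Robo, Slit, netrin, Unc5, Dcc, contactin, neural cell adhesion molecule, cadherin, protocadherin, Lrrtm, Slitrk or Rtn4 groups that were above 0 in at least 4 of the 12 libraries. Of 10749 genes listed, 101 had such a symbol and 93 were members. Just inside the limit were Cntn6, above 0 in 5 libraries, and Cdh15 and Cntnap5a, above 0 in 6. Just outside it were Cdh26, Sema6c and Unc5cl, above 0 in 3 libraries, and Cdh17, Cdh18, Cntnap5c, Ntn5 and Sema3g also stayed below it. The symbols alone brought in 5 members that are not guidance or adhesion proteins. These were Rtn4ip1, a mitochondrial protein, Unc50, which is not a netrin receptor, and Plxna4os1, Plxna4os2 and Plxna4os3, RNAs transcribed opposite to Plxna4.

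The mice were 8 weeks old and carried LPA1-GFP, a green fluorescent reporter of the lysophosphatidic acid receptor LPA1 (the transgene Tg(Lpar1-EGFP)GX193Gsat, brought into C57BL/6 from an FVB/N-Swiss Webster background). Stem libraries held GFP-positive cells that also carried EGFR and Prominin1, progenitor libraries held GFP-positive cells with any of the other 3 combinations of these markers, and niche libraries held the GFP-negative cells of the tissue, with 4 libraries in each group. GFP reports the activity of the transgene, which is not a cell type by itself, and RNA of a fixed number of cells was amplified for each library. Nothing in the labels tells if a replicate stands for 1 animal or for several pooled, and the p-values therefore rest on a spread between libraries that may be partly technical.

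Axon guidance proteins are secreted or membrane-bound cues and their receptors, which attract or repel growing neurites and migrating cells. Semaphorins act through plexins and neuropilins, ephrins through Eph receptors, Slits through Robo receptors and netrins through Dcc and Unc5 receptors, while cadherins, protocadherins and immunoglobulin-type molecules hold cells and synapses together. New granule neurons are made in the dentate gyrus throughout adult life, and they migrate a short way, extend axons and dendrites and join existing circuits, all steps in which such proteins are known to act.

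Levels are given as RPKM, reads normalised to exon length and library size, after scaling between libraries by the trimmed mean of M-values (TMM), so that genes can be compared per length. Library totals ran from 7597256 to 22854036 reads, and 3 reads corresponded to 0.131 to 0.395 CPM, counts normalised to library size, a limit that covers counting error only. The niche library of replicate 1 stood apart, with 33.0% of its reads on alpha-globin genes, against 2.62% to 10.9% in the other niche libraries. All 93 members lie on the forward strand, as do 10573 of the 10579 listed genes with a position in the annotation. That annotation holds 199 protein-coding genes with a matching symbol, of which 98 were in the table. The other 101, among them all 67 on the reverse strand, were not analysed here. Exons of 15 members share bases with a reverse-strand gene, and reads of such partners cannot be told apart, since it is not given in the sources used here whether strand was used in counting. The share of exon bases was 63.5% for Pcdhb12, 27.3% for Plxna4os3, 25.1% for Lrrtm4, 21.1% for Pcdh7 and 18.4% for Rtn4, and it was below 10% for the other 10 members.

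Most members were highest in niche libraries and lowest in stem libraries. Their summed level was 305 to 405 RPKM in stem libraries, 466 to 508 RPKM in progenitor libraries and 772 to 1648 RPKM in niche libraries, and the 3 groups did not overlap. As a share of reads, members took 0.247% to 0.348% in stem libraries, 0.281% to 0.431% in progenitor libraries and 0.539% to 1.01% in 3 niche libraries, but 0.15% in niche replicate 1, the lowest of all libraries. Of the 87 members with enough reads to be tested, 6 had their highest group mean in stem libraries, 23 in progenitor libraries and 58 in niche libraries. Over all 8360 genes tested these shares were 30.9%, 26.9% and 42.2%. The stem mean was the lowest for 57 members (65.5%), against 39.9% of all genes. In sorted bulk samples of this kind, fewer cells of a type and less RNA per cell cannot be told apart.

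Levels differed widely among members. Averaged over the 3 group means, Unc50 stood at 62.4 RPKM, Nrp1 at 56.3 RPKM, Cntn1 at 50.2 RPKM, Lrrtm4 at 29.3 RPKM and Pcdhgc4 at 26.9 RPKM, whereas the median member stood at 2.93 RPKM and 13 members were below 1 RPKM. Too few reads for a test were found for 6 members, namely Epha10, Cdh15, Cntn6, Ntn4, Plxna4os2 and Plxna4os3. Of the 87 tested, 8 reached the read limit in fewer than 4 of the GFP-positive libraries (Cdh7, Cdh12, Cntnap4, Cntnap5a, Cntnap5b, Epha2, Robo4 and Slit3), and so passed only with the niche libraries. Over all 8360 genes tested, 305 did so. Among the lower calls against niche libraries given below, those of Cdh7, Cdh12, Cntnap5b, Epha2, Robo4 and Slit3 could thus be favoured by the filter.

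**Figure D1:**
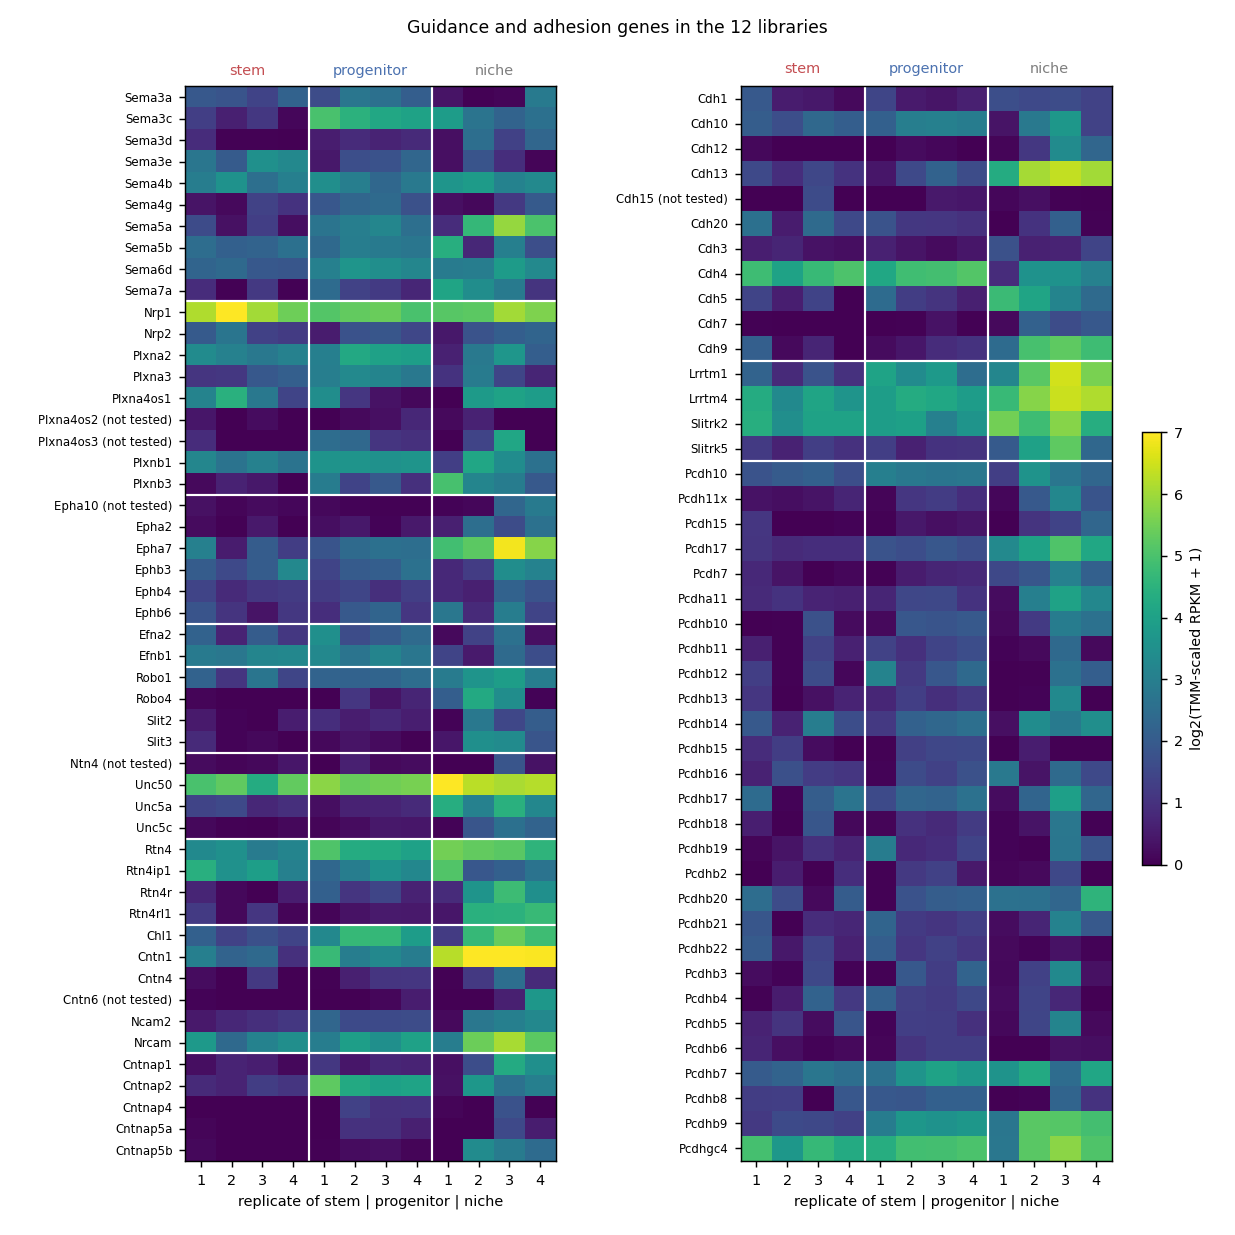
Each cell gives the log2(RPKM + 1) of 1 of the 93 members, down the page by family, in 1 library, across the page as replicates 1 to 4 of the stem, progenitor and niche groups. Most members are brightest in the niche columns of replicates 2 to 4, and the column of niche replicate 1 is darker for many of them.

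Differences were tested with limma on log2(RPKM + 1) across all genes tested, and a gene was called where its Benjamini-Hochberg adjusted p was below 0.05. In stem against progenitor libraries no member was higher, 3 were lower (Sema3c, Cntnap2 and Pcdhb9) and 84 were not called, where 3.71% of all genes were called higher and 3.4% lower (7.11% in all). The members' 3.45% lower was close to the 3.4% of all genes, and the members' median log2 fold change was -0.43, against -0.06 over all genes. In stem against niche libraries 3 members were higher (Sema3e, Efnb1 and Cdh4) and 32 were lower, where 10.9% of all genes were called higher and 10.7% lower (21.6% in all). There 36.8% of tested members were lower, above the share of all genes, and 3.45% were higher, below it; the members' median log2 fold change was -0.90, against 0.09 over all genes. In progenitor against niche libraries 2 members were higher (Sema3c and Cdh4) and 16 were lower, where 5.68% of all genes were called higher and 5.78% lower (11.5% in all). The median log2 fold change was -0.44 for members and 0.15 for all genes. These 3 comparisons share libraries, so their values are set side by side and are not independent of each other.

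Counted by the ranges of TMM-scaled values, 17 members had all stem values below all progenitor values and 1 had them above, where 13.2% and 11.5% of all genes did so. All stem values lay below all niche values for 21 members and above them for 4 (10.4% and 12.3% of all genes), and all progenitor values lay below all niche values for 16 and above them for 5 (6.81% and 8.79% of all genes). The counts against niche libraries depend on the scaling of niche replicate 1, whose values were divided by the lowest factor, 0.418. Overlap without this scaling was not counted. A test of any difference over the 3 groups called 33 of 87 members (37.9%), where 22% of all genes were called.

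The pairwise tests called 37 members at least 1 time, and Sema3c in all 3 comparisons. A lower level in both stem and progenitor libraries than in niche libraries was found in 15 members, namely Epha2, Epha7, Slit3, Unc5a, Rtn4rl1, Cntn1, Cntnap5b, Cdh5, Cdh7, Cdh9, Cdh13, Pcdh7, Pcdh17, Lrrtm4 and Slitrk5. Another 15 members were lower in stem than in niche libraries with neither other comparison called, namely Sema3d, Sema5a, Sema7a, Plxnb3, Robo1, Robo4, Unc50, Unc5c, Rtn4, Rtn4r, Chl1, Nrcam, Cntnap1, Cdh12 and Lrrtm1. No comparison called the other 50 tested members. The shares of all genes with these patterns were not counted, so the counts cannot be set against them. Both comparisons with niche libraries use the same niche libraries, so joint calls are not independent.

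Single libraries moved these counts. Without niche replicate 1, stem against progenitor gave 0 members higher and 10 lower, adding Sema5a, Sema6d, Plxna3, Plxnb3, Rtn4, Chl1 and Lrrtm1, where 13.3% of all genes were called. In the same fit progenitor against niche gave 4 members higher and 31 lower, where 19.8% of all genes were called. Without progenitor replicate 2, 3 or 4 that comparison gave 0 higher and 9 lower in each case, where 6.7%, 6.5% and 6.57% of all genes were called. With library-size scaling in place of TMM it gave 8 higher and 13 lower, where 18.2% of all genes were called higher and 3.76% lower. That scaling raised the all-gene median log2 fold change by 0.49 in stem against niche and by 0.47 in progenitor against niche, to 0.58 and 0.62, and the members' medians stayed below these at -0.57 and -0.10.

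**Figure D2:**
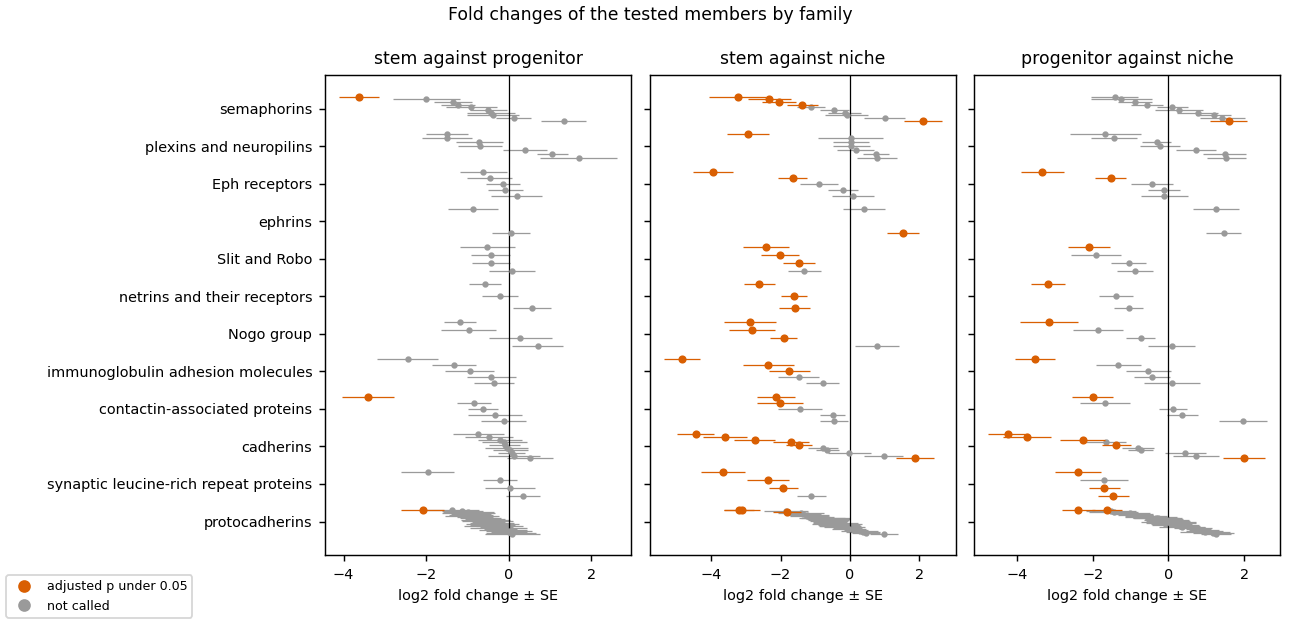
Points give the log2 fold change of each tested member, by family, in stem against progenitor, stem against niche and progenitor against niche libraries, with bars for the standard error (SE) and coloured points where the adjusted p was below 0.05. Most coloured points lie left of 0 in the niche comparisons, and Sema3c and Cntnap2 lie farthest left in stem against progenitor.

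Cell type markers also differed between the groups, and their part in the members' values was not tested. Markers of mature neurons (6 of 14 in the table) summed to 16.2 to 33.3 RPKM in stem libraries, 31.2 to 63.1 RPKM in progenitor libraries and 124 to 694 RPKM in niche libraries, where replicate 1 was the lowest. Markers of neuroblasts and intermediate progenitors (5 of 13) summed to 61.8 to 114 RPKM in stem, 809 to 2135 RPKM in progenitor and 185 to 434 RPKM in niche libraries. Endothelial markers (8 of 12, with Cdh5 itself a member) summed to 19.5 to 57.5 RPKM in stem, 65.4 to 117 RPKM in progenitor and 204 to 1072 RPKM in niche libraries, where replicate 1 was the highest. Oligodendrocyte markers (6 of 10) summed to 146 to 614 RPKM in stem, 2173 to 6186 RPKM in progenitor and 2624 to 5839 RPKM in niche libraries. Astrocyte markers (9 of 12) summed to 1050 to 1770 RPKM in stem, 5735 to 7846 RPKM in progenitor and 8120 to 10261 RPKM in niche libraries, so that like the members they were lowest in stem and highest in niche libraries with no overlap. Markers of oligodendrocyte precursors (5 of 8) summed to 24 to 43 RPKM in stem, 15.5 to 48 RPKM in progenitor and 133 to 260 RPKM in niche libraries, and those of ependyma and choroid plexus (4 of 8) to 13.1 to 69.9 RPKM in stem, 106 to 489 RPKM in progenitor and 4112 to 9369 RPKM in niche libraries. In progenitor against niche, 2 of these 4 ependyma and choroid plexus genes were called higher and 2 lower, so the sum does not speak for each gene. Not all sums followed the order of the members, and that of neuroblast markers was highest in progenitor libraries. Dividing cell markers (6 of 15) summed to 581 to 1009 RPKM in stem and 167 to 294 RPKM in progenitor libraries. In niche libraries they summed to 7.65 to 86.3 RPKM. Mural markers (6 of 10) were lowest in stem libraries, at 11.8 to 185 RPKM. They summed to 669 to 1643 RPKM in progenitor and 559 to 1863 RPKM in niche libraries. Macrophage and microglia markers (8 of 20) summed to 2571 to 10117 RPKM in stem, 129 to 291 RPKM in progenitor and 3366 to 5790 RPKM in niche libraries. Of the labelled stem cells, neural stem and radial glia markers (10 of 15) were found at 737 to 1420 RPKM in stem, 1390 to 2941 RPKM in progenitor and 983 to 1954 RPKM in niche libraries. Fabp7 alone had 457 to 955 RPKM of this sum in stem libraries. In stem against niche, 1 gene of this list was called higher (Sox1) and 3 lower (Hes1, Id3 and Id4). No gene of these lists that was in the table was at 0 in all libraries of a group.

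**Figure D3:**
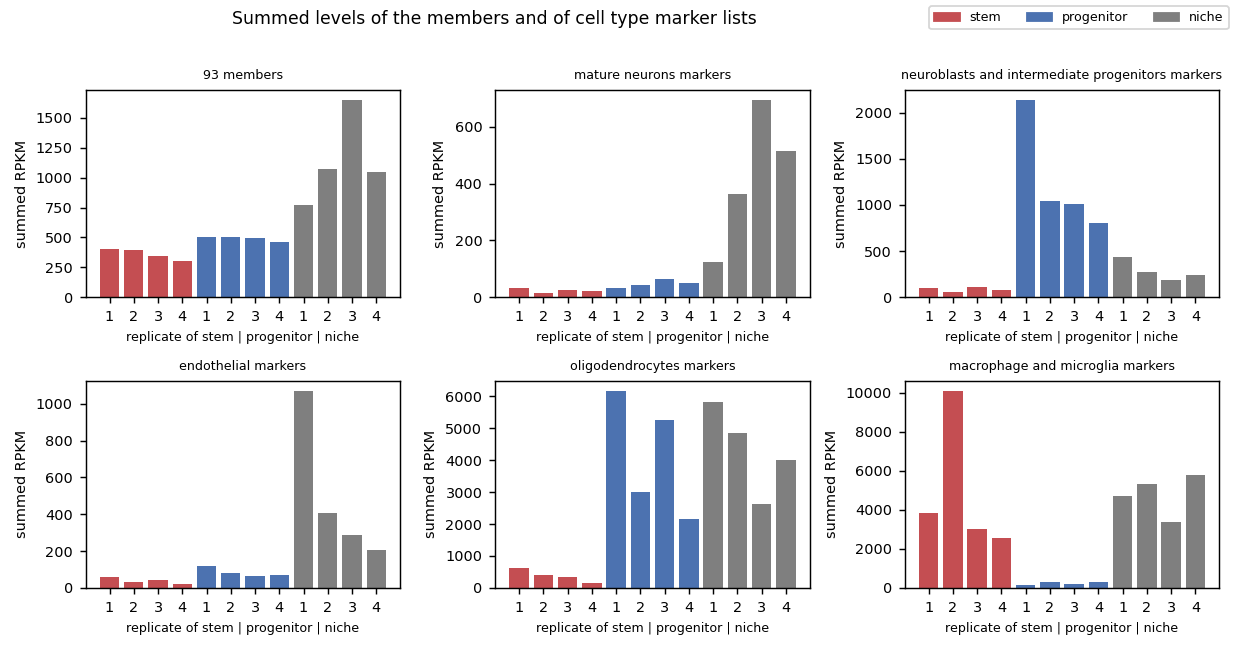
Bars give the summed RPKM of the 93 members and of 5 marker lists in each library, as replicates 1 to 4 of the stem, progenitor and niche groups. The members and the mature neuron markers are highest in niche replicate 3, the neuroblast markers in progenitor replicate 1 and the macrophage markers in stem replicate 2.

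The 200 bases before a RefSeq transcript start are shown for members that stand for the main patterns: Epha7, Cntn1, Unc5a and Pcdh17, which were lower in stem and progenitor than in niche libraries, Sema3e, which was higher in stem than in niche libraries, and Cntnap2, which was lower in stem than in progenitor libraries. Each was taken from RefSeq (GRCm38.p6, forward strand, 5′ to 3′), at the first start where RefSeq gives several, and touches no annotated exon. The Cntnap2 start used lies downstream of the gene's first annotated start, and its window lies in an intron of the transcript that begins there. The positions are chr4:28812931-28813130 for Epha7, chr15:92050965-92051164 for Cntn1, chr13:54949211-54949410 for Unc5a, chr14:84443363-84443562 for Pcdh17, chr5:14025076-14025275 for Sema3e and chr6:45059861-45060060 for Cntnap2. Capitals mark matches, on either strand, to the GC box GGGCGG, the TATA box TATAAA, the CCAAT box CCAAT and the E-box CAGCTG.
Epha7: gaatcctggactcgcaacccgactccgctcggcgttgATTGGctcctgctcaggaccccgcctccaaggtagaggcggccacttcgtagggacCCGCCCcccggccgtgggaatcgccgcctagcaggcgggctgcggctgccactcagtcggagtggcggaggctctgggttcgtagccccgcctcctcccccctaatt
Cntn1: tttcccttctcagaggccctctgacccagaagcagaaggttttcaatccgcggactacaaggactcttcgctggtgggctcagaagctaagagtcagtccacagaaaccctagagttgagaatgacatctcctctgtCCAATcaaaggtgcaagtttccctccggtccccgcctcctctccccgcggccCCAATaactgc
Unc5a: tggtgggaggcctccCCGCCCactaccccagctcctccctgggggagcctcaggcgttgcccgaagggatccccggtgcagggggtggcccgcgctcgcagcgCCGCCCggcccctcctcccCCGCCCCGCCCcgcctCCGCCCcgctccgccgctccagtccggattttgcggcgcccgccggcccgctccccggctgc
Pcdh17: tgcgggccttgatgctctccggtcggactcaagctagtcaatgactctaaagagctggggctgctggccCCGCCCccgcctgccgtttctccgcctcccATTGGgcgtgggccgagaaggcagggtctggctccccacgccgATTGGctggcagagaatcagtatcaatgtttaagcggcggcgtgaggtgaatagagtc
Sema3e: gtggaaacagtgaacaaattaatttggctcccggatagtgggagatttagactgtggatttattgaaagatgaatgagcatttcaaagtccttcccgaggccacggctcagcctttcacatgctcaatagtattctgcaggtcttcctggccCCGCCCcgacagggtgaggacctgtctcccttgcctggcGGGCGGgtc
Cntnap2: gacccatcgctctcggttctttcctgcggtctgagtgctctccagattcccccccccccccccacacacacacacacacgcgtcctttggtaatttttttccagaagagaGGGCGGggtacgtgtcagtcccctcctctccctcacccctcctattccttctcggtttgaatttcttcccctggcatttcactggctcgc

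RefSeq held promoters of 57 of the 93 members, at 70 starts. A GC box stood in 54.3% of the members' promoters, against 31.0% of all 32851 promoters. The latter belong to 27025 genes and were not limited to genes of the deposited table, for which shares were not counted. The TATA box stood in 5.71% and 9.96%, the CCAAT box in 25.7% and 29.3% and the E-box in 17.1% and 10.9% of members' and of all promoters. Members' promoters held a median of 11 CG dinucleotides, and all promoters 5. Within the sequences shown, Unc5a had 24 CG dinucleotides and 5 GC boxes, of which 2 share a base, Epha7 had 19 with 1 GC box, and Pcdh17 had 14 with 1 GC box and 2 CCAAT boxes. Cntn1, with the same expression pattern as these, had 7 CG dinucleotides, 2 CCAAT boxes and no GC box. Sema3e had 7 CG dinucleotides with 2 GC boxes, and Cntnap2 had 9 with 1. Among promoters of members that were lower in stem than in niche libraries 42.9% held a GC box. A match describes letters in this window and is not a binding site.

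Semaphorins are secreted or membrane-bound cues, many of them repulsive. Of 10 tested, 1 was lower in stem than in progenitor libraries, 4 were lower and 1 was higher in stem than in niche libraries, and 1 was higher in progenitor than in niche libraries. Sema3c (ENSMUSG00000028780, chr5:17574281-17730268, GRCm38) encodes a secreted class 3 semaphorin that acts through neuropilins. It had 1.48, 0.543, 1.19 and 0.0972 RPKM in stem libraries, 30.9, 21.7, 17.5 and 15.3 RPKM in progenitor libraries and 13.5, 5.53, 3.68 and 5.02 RPKM in niche libraries. No group overlapped another, with stem lowest and progenitor highest. The log2 fold change was -3.63 ± 0.48 (SE; adjusted p = 0.000263) in stem against progenitor and -2.04 ± 0.48 (adjusted p = 0.00648) in stem against niche. In progenitor against niche it was 1.59 ± 0.48 (adjusted p = 0.0427), a call that was lost under 14 of 20 alternatives, which included leaving out any 1 library other than niche replicate 1.

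Sema3e (ENSMUSG00000063531, chr5:14025276-14256689), a class 3 semaphorin whose receptor is Plexin-D1, was the semaphorin that was higher in stem than in niche libraries. It had 5.72, 3.02, 10.5 and 8.7001 RPKM in stem libraries, 0.375, 2.19, 2.403 and 3.97 RPKM in progenitor libraries and 0.2302, 2.54, 0.872 and 0.06605 RPKM in niche libraries. Every stem value lay above every niche value, while 1 progenitor value exceeded the lowest stem value. Its log2 fold change was 2.11 ± 0.54 (adjusted p = 0.0115) in stem against niche and 1.33 ± 0.54, with no call (adjusted p = 0.189), in stem against progenitor.

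Sema5a, a transmembrane semaphorin with thrombospondin repeats, had 2.04, 0.248, 1.47 and 0.205 RPKM in stem libraries, 5.51, 7.02, 8.27 and 4.92 RPKM in progenitor libraries and 0.858, 24.1, 58.8 and 31.3 RPKM in niche libraries. Stem and progenitor values did not overlap, and niche replicate 1 lay within the stem range. It was lower in stem than in niche libraries (-3.24 ± 0.82, adjusted p = 0.0102), while stem against progenitor (-1.997 ± 0.82, adjusted p = 0.194) was not called with all libraries and was called without niche replicate 1 (adjusted p = 0.00438). Sema7a, anchored to the membrane by a lipid, had 0.868, 0.03099, 1.25 and 0.0241 RPKM in stem, 4.47, 1.598, 1.295 and 0.682 RPKM in progenitor and 16.1, 9.77, 6.36 and 1.08 RPKM in niche libraries and was lower in stem than in niche libraries (-2.33 ± 0.61, adjusted p = 0.0134). Its niche replicate 1 was the highest library, and the lowest niche value lay within the stem range. Sema3d, a secreted class 3 semaphorin, was also lower there (-1.38 ± 0.45, adjusted p = 0.0416), at 0 to 0.838 RPKM in stem, 0.466 to 0.805 RPKM in progenitor and 0.209 to 4.74 RPKM in niche libraries, and was not called with the replicate number as a block (adjusted p = 0.053). The Sema3d call was also lost with library-size scaling, without the filter, with only the 2 groups compared in the fit, and without progenitor replicate 2, 3 or 4.

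Sema4b, a transmembrane semaphorin found at synapses, was among the 3 most abundant of the family and was not called, with 6.78, 10.9, 4.83 and 7.08 RPKM in stem, 9.91, 6.92, 4.1001 and 6.15 RPKM in progenitor and 11.6, 13.3, 7.62 and 8.87 RPKM in niche libraries. The 3 groups overlapped. Of the other semaphorins not called, Sema6d had 2.69 to 4.28 RPKM in stem, 7.203 to 11.7 RPKM in progenitor and 6.5 to 13.2 RPKM in niche libraries, and all its progenitor values lay above all its stem values. Sema3a had 1.65 to 3.63 RPKM in stem, 2.11 to 5.77 RPKM in progenitor and 0.0318 to 6.299 RPKM in niche libraries, Sema4g had 0.141 to 1.58 RPKM in stem, 2.32 to 4.39 RPKM in progenitor and 0.103 to 2.95 RPKM in niche libraries and Sema5b had 3.43 to 5.01 RPKM in stem, 4.22 to 6.76 RPKM in progenitor and 0.701 to 19.99 RPKM in niche libraries, the highest Sema5b value being that of niche replicate 1.

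Of the semaphorin receptors and the Plxna4 antisense RNAs, 7 were tested, and 1 was lower in stem than in niche libraries, with no call in the other comparisons. This was Plxnb3, a plexin that binds Sema5a, which had 0.137, 0.579, 0.367 and 0.01097 RPKM in stem libraries, 6.69, 1.65, 2.91 and 0.951 RPKM in progenitor libraries and 30.1, 8.03, 6.68 and 2.91 RPKM in niche libraries. All its stem values lay below all others, and the progenitor and niche ranges overlapped. The log2 fold change in stem against niche was -2.93 ± 0.60 (adjusted p = 0.00257). Nrp1, the neuropilin that binds class 3 semaphorins and vascular endothelial growth factor, was the most abundant receptor, with 70.3, 170.03, 64.8 and 42.5 RPKM in stem libraries, 33.6, 38.7, 40.9 and 31.02 RPKM in progenitor libraries and 35.02, 36.5, 63.8 and 48.8 RPKM in niche libraries. All stem values lay above all progenitor values, but the difference was not called (1.06 ± 0.38, adjusted p = 0.128). Stem replicate 2, the highest library for Nrp1, was also the highest for the macrophage marker sum, whose part in the Nrp1 level was not tested.

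Plxna2, a receptor for class 3 and class 6 semaphorins, had 9.31, 7.43, 5.92 and 7.47 RPKM in stem, 7.14, 17.6, 14.9 and 14.3 RPKM in progenitor and 0.553, 6.06, 11.8 and 3.27 RPKM in niche libraries. Plxnb1, a receptor for Sema4d, had 8.2004, 5.34, 7.42 and 5.302 RPKM in stem, 11.03, 11.4, 10.7 and 11.4 RPKM in progenitor and 1.46, 16.7, 9.598 and 5.08 RPKM in niche libraries. Neither was called, although all Plxnb1 values of progenitor libraries lay above all those of stem libraries. Plxna3, a partner of neuropilins, had 1.097 to 3.38 RPKM in stem, 6.001 to 8.75 RPKM in progenitor and 0.661 to 6.51 RPKM in niche libraries, and its progenitor values lay above all its stem values (-1.50 ± 0.51, adjusted p = 0.1), a difference that was called without niche replicate 1 (adjusted p = 0.0463). With progenitor replicate 1 left out as well, this difference was again not called. Nrp2 had 1.31 to 5.53 RPKM in stem, 0.437 to 2.66 RPKM in progenitor and 0.356 to 3.79 RPKM in niche libraries and Plxna4os1 had 1.72 to 20.8 RPKM in stem, 0.113 to 9.87 RPKM in progenitor and 0 to 15.3 RPKM in niche libraries.

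**Figure D4:**
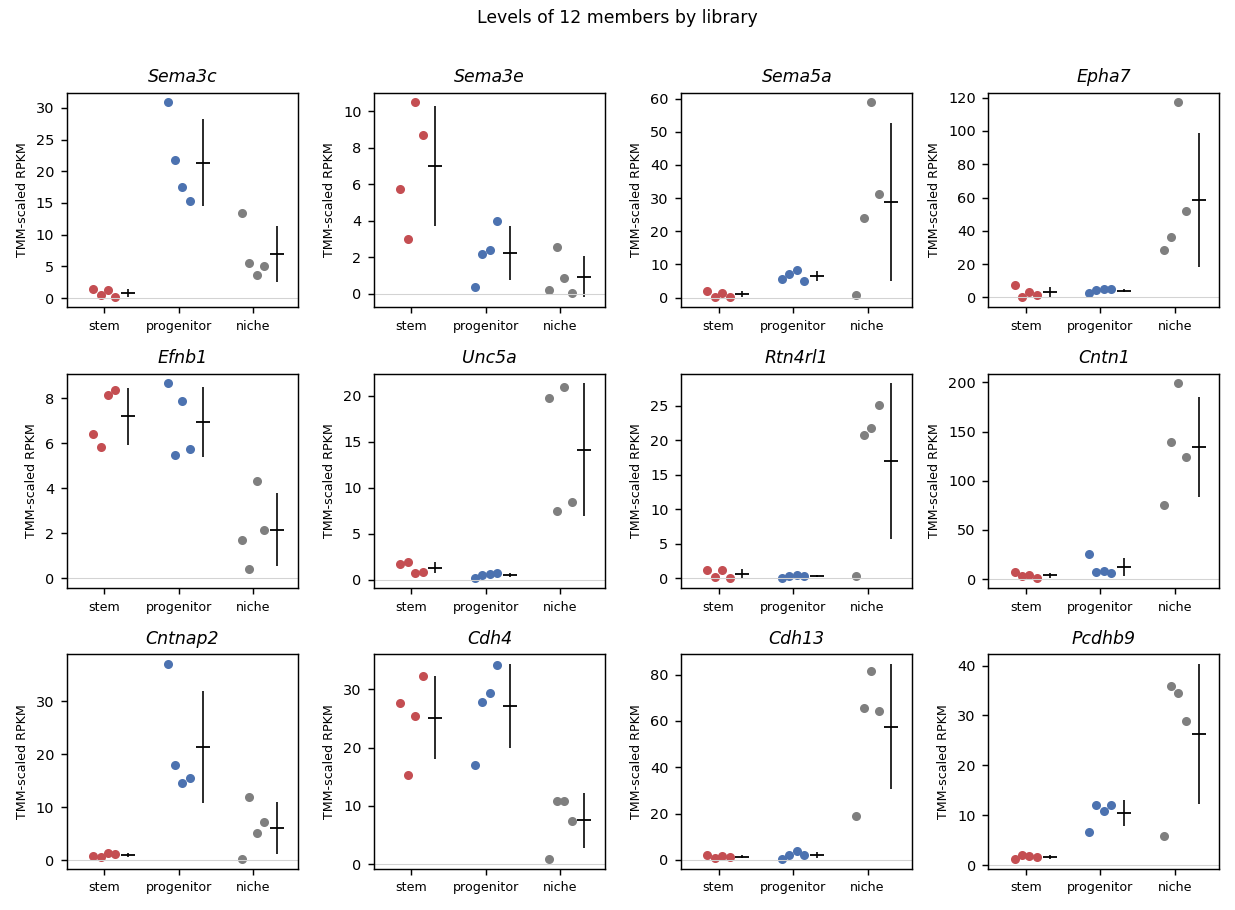
Points give the RPKM of 12 members in each library of the stem, progenitor and niche groups, and the marks beside them give the mean and the SD (n = 4). Sema3c and Cntnap2 are highest in progenitor libraries, Sema3e in stem libraries, Cdh4 and Efnb1 in stem and progenitor libraries alike, and the other 7 in niche libraries.

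Eph receptors are tyrosine kinases that bind ephrins on neighbouring cells. Of 5 tested, none was called in stem against progenitor, and Epha2 and Epha7 were lower in both stem and progenitor libraries than in niche libraries. Epha7 (ENSMUSG00000028289, chr4:28813131-28967499), the most abundant of them, had 7.31, 0.461, 3.07 and 1.43 RPKM in stem libraries, 2.55, 4.31, 5.04 and 4.82 RPKM in progenitor libraries and 28.5, 36.5, 117 and 51.7 RPKM in niche libraries. The niche libraries lay above all others, while stem and progenitor values overlapped. Log2 fold changes were -3.95 ± 0.57 (adjusted p = 0.000136) in stem against niche and -3.34 ± 0.57 (adjusted p = 0.00113) in progenitor against niche.

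Epha2, an Eph receptor of epithelia and vessels, had 0.1502, 0.0232, 0.3902 and 0.01804 RPKM in stem, 0.197, 0.358, 0.05398 and 0.389 RPKM in progenitor and 0.5299, 4.74, 2.08 and 5.11 RPKM in niche libraries. Its niche values lay above all others (-1.66 ± 0.41, adjusted p = 0.00956 in stem against niche and -1.53 ± 0.41, adjusted p = 0.0258 in progenitor against niche), and the second call was lost under 6 of 20 alternatives, among them leaving out progenitor replicate 2, 3 or 4 or niche replicate 2 or 4. Ephb3, a receptor of B-class ephrins, had 3.14, 1.93, 3.103 and 8.72 RPKM in stem, 1.69, 3.04, 3.23 and 5.11 RPKM in progenitor and 0.7502, 1.36, 9.697 and 7.67 RPKM in niche libraries. Ephb6, which lacks kinase activity, had 2.53, 1.08, 0.299 and 1.197 RPKM in stem, 0.898, 2.89, 3.73 and 1.17 RPKM in progenitor and 5.83, 0.776, 6.76 and 1.69 RPKM in niche libraries. For both the 3 groups overlapped and no comparison was called, and Ephb4 had 0.773 to 1.71 RPKM in stem, 0.941 to 1.76 RPKM in progenitor and 0.536 to 3.56 RPKM in niche libraries and was not called either.

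Efnb1, a transmembrane ephrin that binds EphB receptors, was higher in stem than in niche libraries. It had 6.41, 5.84, 8.14 and 8.39 RPKM in stem libraries, 8.67, 5.49, 7.88 and 5.74 RPKM in progenitor libraries and 1.696, 0.424, 4.34 and 2.16 RPKM in niche libraries. Stem and progenitor values covered nearly the same range, and both lay above all niche values. Efnb1's log2 fold change was 1.52 ± 0.46 (adjusted p = 0.0283) in stem against niche, a call lost under 5 of 20 alternatives, among them leaving out stem replicate 1, 3 or 4 or niche replicate 2. In progenitor against niche it was 1.46 ± 0.46, with no call (adjusted p = 0.0514), and it was called without niche replicate 1 (adjusted p = 0.0311). Efna2, a lipid-anchored ephrin that binds EphA receptors, had 3.57, 0.614, 3.14 and 1.19 RPKM in stem, 10.2, 2.07, 2.99 and 4.36 RPKM in progenitor and 0.1399, 1.62, 5.14 and 0.214 RPKM in niche libraries; its groups overlapped and it was not called.

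Slits are secreted proteins that repel neurites through Robo receptors. Of 4 tested, Slit3, Robo1 and Robo4 were lower in stem than in niche libraries, and Slit3 was also lower in progenitor than in niche libraries. Slit3 had 0.7696, 0.05498, 0.112 and 0 RPKM in stem libraries, 0.109, 0.282, 0.162 and 0.0299 RPKM in progenitor libraries and 0.334, 10.3, 9.45 and 2.62 RPKM in niche libraries. Niche replicates 2 to 4 stood above all others, and niche replicate 1 lay within the stem range. The log2 fold changes were -2.02 ± 0.55 (adjusted p = 0.0165) in stem against niche and -2.10 ± 0.55 (adjusted p = 0.0232) in progenitor against niche, the second lost under 6 of 20 alternatives.

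Robo1, a neuronal Slit receptor, had 3.62, 1.12, 5.55 and 1.76 RPKM in stem, 3.67, 3.62, 3.74 and 4.62 RPKM in progenitor and 6.498, 11.2, 13.8 and 6.88 RPKM in niche libraries. All niche values lay above all stem values (-1.48 ± 0.47, adjusted p = 0.0329), and the call was lost under 10 of 20 alternatives, among them library-size scaling and leaving out stem replicate 1, 2 or 4. Robo4, the Robo of blood vessels, had 0.07499, 0, 0.0177 and 0 RPKM in stem, 0, 1.16, 0.2802 and 0.653 RPKM in progenitor and 3.28, 18.2, 9.81 and 0.0405 RPKM in niche libraries and was lower in stem than in niche libraries (-2.43 ± 0.67, adjusted p = 0.0164). Niche replicate 4 lay within the stem range. The endothelial marker sum was also the lowest of the niche libraries in replicate 4. That sum was highest in niche replicate 1, at 1072 RPKM, where Robo4 lay below niche replicates 2 and 3. The part of endothelial cells was not tested. Slit2 had 0 to 0.463 RPKM in stem, 0.465 to 0.896 RPKM in progenitor and 0.0388 to 5.93 RPKM in niche libraries and was not called with all libraries.

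Unc5 proteins are netrin receptors that mediate repulsion. Unc5a (ENSMUSG00000025876, chr13:54949411-55006018) had 1.699, 1.93, 0.726 and 0.913 RPKM in stem libraries, 0.191, 0.579, 0.616 and 0.776 RPKM in progenitor libraries and 19.7, 7.45, 20.96 and 8.43 RPKM in niche libraries. All niche values, that of replicate 1 included, lay above all others. The log2 fold changes were -2.61 ± 0.45 (adjusted p = 0.00067) in stem against niche and -3.18 ± 0.45 (adjusted p = 0.000252) in progenitor against niche, and neither call was lost under any of the 20 alternatives.

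Unc5c, a further Unc5 receptor, had 0.107, 0.0298, 0 and 0.108 RPKM in stem, 0.05901, 0.165, 0.379 and 0.341 RPKM in progenitor and 0.0453, 2.62, 4.96 and 3.69 RPKM in niche libraries and was lower in stem than in niche libraries (-1.60 ± 0.45, adjusted p = 0.018), with niche replicate 1 within the stem range. Unc50, matched by name only, had 30.6, 38.04, 18.9 and 38.99 RPKM in stem, 54.5, 40.1, 43.8 and 46.4 RPKM in progenitor and 219, 76.97, 67.6 and 73.9 RPKM in niche libraries. All its stem values lay below all others, niche replicate 1 was far above the rest, and it was lower in stem than in niche libraries (-1.62 ± 0.38, adjusted p = 0.00669).

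The Nogo group limits axon growth: Rtn4 encodes the inhibitor Nogo, Rtn4r its receptor and Rtn4rl1 a related receptor. All 3 were lower in stem than in niche libraries, and Rtn4rl1 was also lower in progenitor than in niche libraries. Rtn4 had 8.98, 10.5, 6.502 and 7.95 RPKM in stem libraries, 32.95, 18.7, 17.9 and 15.1 RPKM in progenitor libraries and 44.6, 38.9, 35.8 and 22.4 RPKM in niche libraries. All its stem values lay below all others. It was lower in stem than in niche libraries (-1.92 ± 0.38, adjusted p = 0.00194), and the difference to progenitor libraries (-1.18 ± 0.38, adjusted p = 0.0798) was called without niche replicate 1 (adjusted p = 0.0184).

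Rtn4rl1 had 1.27, 0.117, 1.17 and 0.0684 RPKM in stem libraries, 0.0747, 0.279, 0.409 and 0.383 RPKM in progenitor libraries and 0.335, 20.8, 21.7 and 25.2 RPKM in niche libraries. Niche replicates 2 to 4 stood far above every other library, whereas niche replicate 1 lay among the stem and progenitor values. Log2 fold changes were -2.88 ± 0.76 (adjusted p = 0.0135) in stem against niche and -3.16 ± 0.76 (adjusted p = 0.0139) in progenitor against niche. Rtn4r had 0.666, 0.103, 0 and 0.4801 RPKM in stem, 3.41, 1.0999, 1.75 and 0.588 RPKM in progenitor and 0.822, 11.3, 26.7 and 10.2 RPKM in niche libraries, with all stem values below all niche values (-2.83 ± 0.67, adjusted p = 0.00671 in stem against niche). Rtn4ip1, matched by name only, was not called with all libraries and had 20.2, 10.6, 14.2 and 7.27 RPKM in stem, 4.08, 6.76, 10.97 and 8.42 RPKM in progenitor and 33.004, 2.74, 3.42 and 5.31 RPKM in niche libraries.

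Of 5 immunoglobulin adhesion molecules tested, 3 were lower in stem than in niche libraries and 1 in progenitor than in niche libraries. Cntn1 (ENSMUSG00000055022, chr15:92051165-92341967), contactin 1, a lipid-anchored protein of axons and oligodendrocyte precursors, had the largest absolute fold change of the 87 members in stem against niche. It had 7.099, 3.66, 4.24 and 0.964 RPKM in stem libraries, 25.7, 6.84, 8.55 and 6.64 RPKM in progenitor libraries and 75.5, 139.6, 199 and 124 RPKM in niche libraries. Niche values lay above all others, and stem and progenitor values overlapped. Log2 fold changes were -4.85 ± 0.52 (adjusted p = 1.05e-05) in stem against niche and -3.53 ± 0.52 (adjusted p = 0.000385) in progenitor against niche, and neither call was lost under any of the 20 alternatives.

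Chl1, close homolog of L1, which promotes neurite growth, had 3.43, 1.63, 2.27 and 1.69 RPKM in stem libraries, 8.61, 24.8, 24.3 and 13.6 RPKM in progenitor libraries and 1.32, 24.8, 40.7 and 27.4 RPKM in niche libraries. All stem values lay below all progenitor values and below niche replicates 2 to 4, while niche replicate 1 lay below all stem values. In log2 terms the difference was -2.36 ± 0.73 (adjusted p = 0.0314) in stem against niche, a call lost under 9 of 20 alternatives, among them library-size scaling and leaving out any 1 stem library. In stem against progenitor it was -2.45 ± 0.73, with no call (adjusted p = 0.0565), and it was called with the replicate number as a block (adjusted p = 0.0417) and without niche replicate 1 (adjusted p = 0.000564).

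Nrcam, which binds ankyrin in growing axons and at the node of Ranvier, had 12.4, 4.22, 7.59 and 10.04 RPKM in stem, 6.798, 14.2, 10.3 and 14.99 RPKM in progenitor and 6.76, 41.9, 66.96 and 36.4 RPKM in niche libraries. Niche replicates 2 to 4 lay above all others (-1.75 ± 0.59, adjusted p = 0.0454 in stem against niche), and the call was lost under 14 of 20 alternatives, among them leaving out any 1 library other than niche replicate 1 or progenitor replicate 1. Ncam2 had 0.397 to 1.21 RPKM in stem, 1.99 to 4.01 RPKM in progenitor and 0.129 to 8.61 RPKM in niche libraries, with all progenitor values above all stem values, and Cntn4 had 0 to 1.24 RPKM in stem, 0.0251 to 1.13 RPKM in progenitor and 0.0337 to 4.74 RPKM in niche libraries. Neither was called with all libraries.

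Contactin-associated proteins join contactins at the axon membrane. Of 5 tested, Cntnap2 was lower in stem than in progenitor libraries, Cntnap1 and Cntnap5b were lower in stem than in niche libraries, and Cntnap5b was also lower in progenitor than in niche libraries. Cntnap2 (ENSMUSG00000039419, chr6:45059357-47304213), known for clustering potassium channels beside the node of Ranvier, had 0.778, 0.632, 1.42 and 1.099 RPKM in stem libraries, 37.1, 18.03, 14.7 and 15.6 RPKM in progenitor libraries and 0.2402, 11.9, 5.07 and 7.196 RPKM in niche libraries. Progenitor values lay above all others, and stem values lay below niche replicates 2 to 4 but above niche replicate 1. The log2 fold change in stem against progenitor was -3.41 ± 0.62 (adjusted p = 0.00316), a call lost under none of the 20 alternatives. In stem against niche it was -1.44 ± 0.62 (adjusted p = 0.111) and in progenitor against niche 1.97 ± 0.62 (adjusted p = 0.0524), neither called. Without niche replicate 1 both were called, at -2.14 ± 0.41 (adjusted p = 0.00119) and 1.27 ± 0.41 (adjusted p = 0.0417). With progenitor replicate 1 left out as well, progenitor against niche was again not called. The neuroblast marker sum was highest in progenitor libraries, as were Cntnap2 and Sema3c, and its part was not tested.

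Cntnap5b had 0.115, 0, 0 and 0.0166 RPKM in stem, 0.0363, 0.178, 0.228 and 0.0698 RPKM in progenitor and 0, 9.298, 6.52 and 4.403 RPKM in niche libraries, so that 3 niche libraries stood above all others and niche replicate 1 was at 0. Its log2 fold change was -2.13 ± 0.55 (adjusted p = 0.0115) in stem against niche and -2.01 ± 0.55 (adjusted p = 0.0269) in progenitor against niche, the second lost under 10 of 20 alternatives, among them leaving out any 1 progenitor library. Cntnap1, the partner of contactin 1 beside the node of Ranvier, had 0.189, 0.606, 0.499 and 0.111 RPKM in stem, 1.19, 0.3404, 0.682 and 0.611 RPKM in progenitor and 0.218, 2.18, 18.3 and 10.2 RPKM in niche libraries, and its call in stem against niche (-2.01 ± 0.66, adjusted p = 0.0405) was lost under 13 of 20 alternatives. Cntnap4 and Cntnap5a were not called and reached at most 2.37 and 1.91 RPKM, both in niche replicate 3.

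Cadherins bind the same cadherin on the next cell. Of 10 tested, none was called in stem against progenitor, 5 were lower and Cdh4 was higher in stem than in niche libraries, and 4 were lower and Cdh4 was higher in progenitor than in niche libraries. Cdh13 (ENSMUSG00000031841, chr8:118283733-119324921), T-cadherin, which lacks a cytoplasmic tail, had 1.89, 0.891, 1.79 and 1.05 RPKM in stem libraries, 0.349, 1.94, 3.61 and 2.104 RPKM in progenitor libraries and 18.8, 65.4, 81.6 and 64.3 RPKM in niche libraries. Niche values lay above all others, with replicate 1 the lowest of them. Log2 fold changes were -4.45 ± 0.53 (adjusted p = 2.67e-05) in stem against niche and -4.23 ± 0.53 (adjusted p = 8.5e-05) in progenitor against niche, and neither call was lost under any of the 20 alternatives.

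Cdh9, a cadherin known at mossy fibre synapses of the hippocampus, had 3.38, 0.134, 0.656 and 0 RPKM in stem libraries, 0.159, 0.334, 0.835 and 1.05 RPKM in progenitor libraries and 4.41, 30.2, 37.4 and 27.6 RPKM in niche libraries. The niche group lay above the rest (-3.61 ± 0.64, adjusted p = 0.000772 in stem against niche and -3.74 ± 0.64, adjusted p = 0.00109 in progenitor against niche). Cdh5, the VE-cadherin of endothelial junctions, had 1.68, 0.513, 1.65 and 0 RPKM in stem libraries, 4.44, 1.401, 1.07 and 0.518 RPKM in progenitor libraries and 26.1, 16.03, 7.98 and 4.32 RPKM in niche libraries. Here niche replicate 1 was the highest library, as for the endothelial marker sum, and the lowest niche value lay just below the highest progenitor value. Cdh5 was lower in stem than in niche libraries (-2.75 ± 0.59, adjusted p = 0.00341) and in progenitor than in niche libraries (-2.27 ± 0.59, adjusted p = 0.021), the second call being lost under 6 of 20 alternatives.

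Cdh7, a type II cadherin, had 0.0219, 0, 0 and 0 RPKM in stem, 0, 0.0241, 0.274 and 0.0249 RPKM in progenitor and 0.139, 3.49, 2.11 and 2.84 RPKM in niche libraries and was lower in stem than in niche libraries (-1.48 ± 0.38, adjusted p = 0.0118) and in progenitor than in niche libraries (-1.38 ± 0.38, adjusted p = 0.0284). Its progenitor replicate 3 lay above niche replicate 1, so those groups overlapped, and the second call was lost under 7 of 20 alternatives. Cdh12, also of type II, had 0 to 0.119 RPKM in stem, 0 to 0.159 RPKM in progenitor and 0.07203 to 9.48 RPKM in niche libraries and was lower in stem than in niche libraries (-1.69 ± 0.52, adjusted p = 0.0299). Cdh1, Cdh3, Cdh10 and Cdh20 were not called, and of these Cdh10 was the most abundant, with 2.23 to 4.17 RPKM in stem, 3.46 to 7.34 RPKM in progenitor and 0.297 to 11.97 RPKM in niche libraries.

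Cdh4, R-cadherin, had 27.6, 15.3, 25.4 and 32.2 RPKM in stem libraries, 17.1, 27.9, 29.3 and 34.2 RPKM in progenitor libraries and 0.863, 10.9, 10.8 and 7.46 RPKM in niche libraries. Stem and progenitor values covered nearly the same range, and both lay above all niche values. R-cadherin's log2 fold change was 1.88 ± 0.55 (adjusted p = 0.0225) in stem against niche and 1.995 ± 0.55 (adjusted p = 0.0272) in progenitor against niche. Without niche replicate 1 these were 1.26 ± 0.33 (adjusted p = 0.00964) and 1.37 ± 0.33 (adjusted p = 0.00908). Leaving out stem replicate 1, 3 or 4 lost the first call, leaving out progenitor replicate 2, 3 or 4 lost the second, and both were lost with only the 2 groups compared in the fit.

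Lrrtm and Slitrk proteins are leucine-rich repeat proteins that organise synapses. Of 4 tested, Lrrtm1, Lrrtm4 and Slitrk5 were lower in stem than in niche libraries, and Lrrtm4, Slitrk2 and Slitrk5 were lower in progenitor than in niche libraries. Lrrtm1 had 3.68, 0.7695, 2.44 and 0.995 RPKM in stem libraries, 15.6, 9.36, 12.5 and 4.68 RPKM in progenitor libraries and 8.25, 35.7, 90.1 and 46.8 RPKM in niche libraries. Its stem values lay below all progenitor and all niche values. Its log2 fold change was -3.67 ± 0.63 (adjusted p = 0.000645) in stem against niche and -1.97 ± 0.63, with no call (adjusted p = 0.0795), in stem against progenitor.

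Lrrtm4, a synaptic protein of dentate granule cells that binds heparan sulfate, had 18.8, 9.097, 16.1 and 11.2 RPKM in stem libraries, 13.8, 18.7, 17.1 and 13.5 RPKM in progenitor libraries and 25.4, 51.996, 85.4 and 70.2 RPKM in niche libraries. Niche values lay above all others, at a log2 fold change of -1.92 ± 0.41 (adjusted p = 0.00332) in stem against niche and -1.70 ± 0.41 (adjusted p = 0.014) in progenitor against niche. Both calls were lost with library-size scaling (adjusted p = 0.0824 and 0.147). Slitrk5 had 1.27, 0.582, 1.47 and 0.988 RPKM in stem, 1.46, 0.5495, 1.05 and 1.08 RPKM in progenitor and 2.98, 15.1, 37.4 and 4.09 RPKM in niche libraries, with niche values above all others (-2.37 ± 0.61, adjusted p = 0.0117 in stem against niche and -2.40 ± 0.61, adjusted p = 0.0191 in progenitor against niche). Slitrk2 was well above 0 in every library, with 20.1, 10.1, 15.3 and 15.4 RPKM in stem, 14.01, 14.7, 7.33 and 11.4 RPKM in progenitor and 44.3, 27.1, 51.9 and 19.4 RPKM in niche libraries, and its call in progenitor against niche (-1.46 ± 0.41, adjusted p = 0.0316) was lost under 6 of 20 alternatives, among them library-size scaling.

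Protocadherins were the largest family, with 28 members, all tested. Of these, 23 lie in the gene cluster of chromosome 18, where single neurons are known to use their own combinations of similar genes. Near-identical copies can share reads, so values of single cluster genes are uncertain. Pcdhb9 was lower in stem than in both progenitor and niche libraries, and no other cluster gene was called. It had 1.22, 1.96, 1.84 and 1.54 RPKM in stem libraries, 6.61, 12.1, 10.9 and 11.98 RPKM in progenitor libraries and 5.75, 35.9, 34.5 and 28.99 RPKM in niche libraries. Its stem values lay below all others, and niche replicate 1 lay below all progenitor values. The log2 fold change was -2.09 ± 0.53 (adjusted p = 0.0242) in stem against progenitor, a call lost under 9 of 20 alternatives, among them library-size scaling and leaving out any 1 stem library, and -3.11 ± 0.53 (adjusted p = 0.000578) in stem against niche.

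Pcdhgc4, the most abundant cluster gene, whose transcript shares constant exons with other gamma genes, had 29.5, 12.2, 24.7 and 18.4 RPKM in stem, 19.7, 28.7, 28.9 and 31.1 RPKM in progenitor and 5.85, 36.2, 54.4 and 32.7 RPKM in niche libraries. Pcdhb7 had 3.0002, 3.67, 5.68 and 4.803 RPKM in stem, 5.14, 11.3, 15.2 and 12.4 RPKM in progenitor and 11.1, 17.98, 4.52 and 16.8 RPKM in niche libraries. The groups of both overlapped and neither was called. Pcdhb22, named after its values were seen, was the cluster gene with all niche values below all others, at 0.371 to 3.04 RPKM in stem, 1.16 to 3.29 RPKM in progenitor and 0.0418 to 0.262 RPKM in niche libraries. Single beta genes varied widely within a group, as Pcdhb17 did with 4.44, 0.0529, 3.21 and 5.44 RPKM in stem, 1.995, 3.997, 3.67 and 5.15 RPKM in progenitor and 0.181, 3.799, 14.4 and 3.92 RPKM in niche libraries, another gene named after its values were seen. The other 18 cluster genes ranged from 0 to 22.4 RPKM, the highest being Pcdhb20 in niche replicate 4, and none was called. The median log2 fold change of the 23 cluster genes was -0.51 in stem against progenitor, -0.37 in stem against niche and 0.08 in progenitor against niche.

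**Figure D5:**
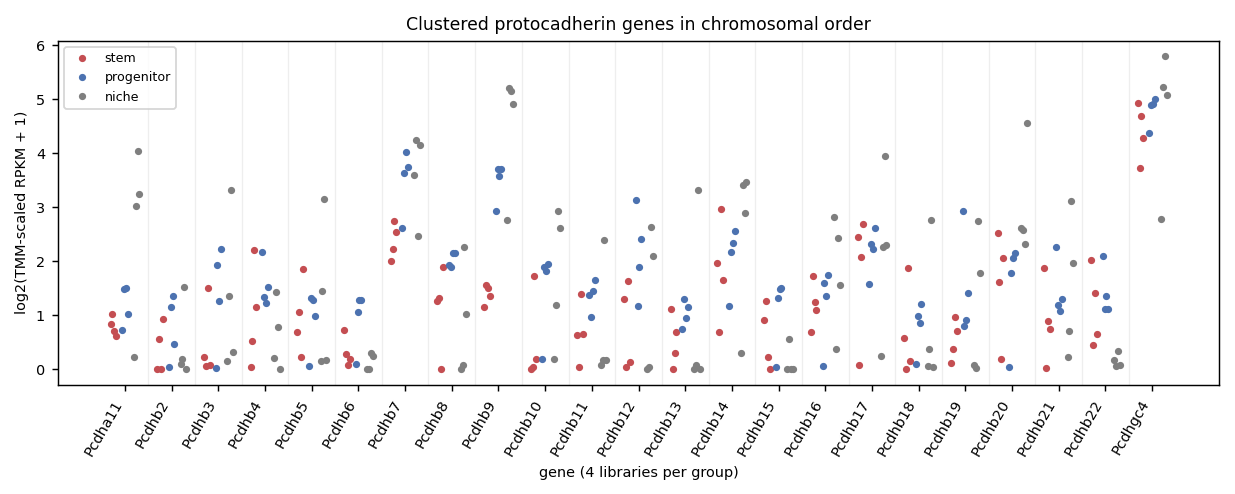
Points give the log2(RPKM + 1) of the 23 clustered protocadherin genes in each library of the stem, progenitor and niche groups. Stem values of Pcdhb9 lie below all its progenitor and niche values, and those of most other genes overlap between groups.

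Outside the cluster, Pcdh7 and Pcdh17 were lower in both stem and progenitor libraries than in niche libraries, and Pcdh10, Pcdh11x and Pcdh15 were not called with all libraries. Pcdh17 (ENSMUSG00000035566, chr14:84443563-84539002), a protocadherin of synapses and axon bundles, had 1.13, 0.783, 0.903 and 0.876 RPKM in stem libraries, 2.45, 2.14, 2.75 and 2.23 RPKM in progenitor libraries and 8.77, 15.4, 32.8 and 16.97 RPKM in niche libraries. No group overlapped another, with stem lowest and niche highest. Log2 fold changes were -3.20 ± 0.44 (adjusted p = 8.65e-05) in stem against niche and -2.38 ± 0.44 (adjusted p = 0.00213) in progenitor against niche. Pcdh7 had 0.7396, 0.299, 0.0114 and 0.0927 RPKM in stem, 0.03797, 0.4602, 0.645 and 0.749 RPKM in progenitor and 1.87, 2.69, 7.38 and 3.41 RPKM in niche libraries, with niche values above all others (-1.82 ± 0.40, adjusted p = 0.00388 in stem against niche and -1.62 ± 0.40, adjusted p = 0.0155 in progenitor against niche).

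Genes outside the members that carry guidance and adhesion signals into the cell were taken from a list of 80, of which 34 were in the table and 33 were tested. In stem against progenitor none was higher and 3 were lower (Ank3, Nck2 and Tenm4), in stem against niche 3 were higher (Ctnna1, Dpysl5 and Myo10) and 6 were lower (among them Ank3, Cxcl12, Fyn and Nlgn3), and in progenitor against niche 2 were higher (Crmp1 and Dpysl5) and 3 were lower (Cxcl12, Fyn and Nlgn3). In this order of comparisons, 9.09%, 27.3% and 15.2% of those tested were called. These shares were near the 7.11%, 21.6% and 11.5% of all genes. Dpysl5, of the collapsin response mediator family that acts downstream of semaphorins, had 5.83, 2.98, 6.53 and 6.17 RPKM in stem libraries, 20.6, 16.7, 13.99 and 8.48 RPKM in progenitor libraries and 0.421, 0.572, 0.353 and 2.48 RPKM in niche libraries. No group overlapped another, with progenitor highest and niche lowest. Its log2 fold change was 1.78 ± 0.47 (adjusted p = 0.0136) in stem against niche and 3.08 ± 0.47 (adjusted p = 0.000454) in progenitor against niche. Crmp1, of the same family, averaged 17.4 ± 7.04 RPKM in stem, 57.9 ± 14.8 RPKM in progenitor and 16.4 ± 14.6 RPKM in niche libraries (SD, n = 4 each) and was higher in progenitor than in niche libraries (2.21 ± 0.60, adjusted p = 0.027), a call lost under 6 of 20 alternatives, among them leaving out any 1 progenitor library or niche replicate 4.

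Ank3, ankyrin G of the axon initial segment, had 1.15, 0.3304, 0.173 and 0.161 RPKM in stem, 3.68, 7.15, 6.65 and 3.77 RPKM in progenitor and 1.33, 12.8, 18.2 and 16.02 RPKM in niche libraries, with stem values below all others. It was lower in stem than in niche libraries (-2.85 ± 0.61, adjusted p = 0.00346) and than in progenitor libraries (-2.12 ± 0.61, adjusted p = 0.0469), and the second call was lost under 13 of 20 alternatives, among them the replicate block (adjusted p = 0.0567). The adaptor Nck2 (-1.71 ± 0.45, adjusted p = 0.0295) and the teneurin Tenm4 (-1.68 ± 0.46, adjusted p = 0.0344; 0.0564 with the replicate block) were lower in stem than in progenitor libraries. The Nck2 call was lost under 6 of 20 alternatives and the Tenm4 call under 10 of 20, among them leaving out any 1 stem or progenitor library for Tenm4, and stem replicate 1, 2 or 4 or progenitor replicate 1, 2 or 3 for Nck2. Fyn, a Src-type kinase downstream of several guidance receptors, averaged 9.92 ± 1.55 RPKM in stem, 18.2 ± 2.29 RPKM in progenitor and 65.7 ± 24.9 RPKM in niche libraries (SD, n = 4 each). It was lower than in niche libraries both in stem (-2.54 ± 0.36, adjusted p = 0.000106) and in progenitor libraries (-1.72 ± 0.36, adjusted p = 0.00521). The chemokine Cxcl12 (-3.08 ± 0.54, adjusted p = 0.000681 in stem and -1.93 ± 0.54, adjusted p = 0.0284 in progenitor libraries) and the synaptic adhesion protein Nlgn3 (-1.55 ± 0.35, adjusted p = 0.00488 in stem and -1.53 ± 0.35, adjusted p = 0.00996 in progenitor libraries) were likewise lower than in niche libraries. Library-size scaling lost both Nlgn3 calls and the progenitor call of Cxcl12, which was lost under 6 of 20 alternatives, among them leaving out progenitor replicate 2, 3 or 4.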

How the data were processed

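RNA sequencing of 12 libraries (4 each of stem, progenitor and niche cells) was analysed from 1 deposited table of 10749 Ensembl genes. The deposited values are log2(RPKM + 1), as found from the values themselves: undone, they gave whole reads for 100% of values above 0 (tolerance 1e-05 reads) once a length was found for each gene. Per the submitters' processing notes the genome builds were mm10 and GRCm38, and the aligner, counting tool, use of strand, annotation and filters were not given in the sources used here. Symbols and positions were taken from GENCODE vM21 (GRCm38), with symbols for 10579 genes, and promoters from RefSeq.

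Values were rescaled by TMM factors (0.418 in niche replicate 1, 0.820 to 1.25 in the others). Genes reaching 0.767 CPM (10 reads in the median library) in at least 4 libraries, with at least 15 reads in all, were tested, which left 8360. The test was limma 3.58.1 (R 4.3.3, statmod 1.5.0) on log2(RPKM + 1) with an intensity trend and robust spread, all 12 libraries sharing 1 estimate of the spread, 3 contrasts and a moderated F test, with Benjamini-Hochberg adjustment over all genes tested at 0.05. Fold changes are on this scale, with a pseudocount of 1 RPKM, which understates changes of low genes. The fit was also run on simulated data with a common spread for all genes, changes in stem only and no outlying library. That run therefore does not show how the fit handles a library such as niche replicate 1.

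The study's design takes the 3 populations from each of 4 replicates, so equal numbers were read as pairs. Correlations of same-numbered libraries' deviations from their group means were low, from -0.128 to 0.206. Differently numbered libraries of 2 groups gave -0.191 to 0.142. Same-numbered progenitor and niche libraries all correlated above 0, at 0.166, 0.0295, 0.206 and 0.092 for replicates 1 to 4. Same-numbered pairs of stem libraries with either group ran from -0.128 to 0.0746. The main fit did not use the pairs, and the replicate block was an alternative fit. Library pairs of a group differed beyond sampling noise, with a chi-square per degree of freedom of at least 34.9. It was 261 to 337 for pairs with progenitor replicate 1, 468 to 763 for pairs with niche replicate 1 and at most 250 for all others. Other alternatives were library-size scaling, no filter, pseudocounts of 0.1 and 4 RPKM, voom on the recovered reads, only the 2 groups compared in the fit, leaving out each library, leaving out progenitor and niche replicate 1 together, and, chosen after seeing the data, leaving out the 5 members matched by name only.

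Members and gene lists were chosen with earlier results of these data known. Named were the 20 called members with the largest absolute fold change in each comparison, the 3 most abundant of each family, members called in 2 or more comparisons, and the 5 called genes with the largest change among the other pathway genes in each comparison. Other called members, and those with values but no call, are given as ranges. A result for 1 of the other pathway genes is not reported here.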

Additional observations from a re-analysis of the deposited data

Results flagged for a closer look

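In 17 of 165 combinations of a named gene and a group, 1 library stood far from the other 3 of its group by Dixon's criterion, which chance alone meets in about 1 in 20.

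Of these, 7 were in niche replicate 1, the library rich in alpha-globin reads, and their causes were not tested. There Rtn4rl1 had 0.335 RPKM (20.8 to 25.2 RPKM in the other 3 niche libraries), Chl1 1.32 RPKM (24.8 to 40.7), Ank3 1.33 RPKM (12.8 to 18.2), Cdh9 4.41 RPKM (27.6 to 37.4), Pcdhb9 5.75 RPKM (29.0 to 35.9) and Cdh13 18.8 RPKM (64.3 to 81.6), all below the rest. Unc50, at 219 RPKM (67.6 to 77.0), was above them.

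In the other niche libraries, Nlgn3 had 92.1 RPKM in replicate 3 (45.0 to 50.8) and Dpysl5 had 2.48 RPKM in replicate 4 (0.353 to 0.572). In stem libraries, Cdh7 had 0.0219 RPKM in replicate 1 (0 in the others) and Cntnap5b 0.115 RPKM in replicate 1 (0 to 0.0166), both very low levels. Crmp1 had 7.16 RPKM (18.9 to 22.9) and Dpysl5 2.98 RPKM (5.83 to 6.53) in stem replicate 2, and Nck2 had 15.3 RPKM in stem replicate 3 (8.52 to 8.80). In progenitor libraries, Pcdhb9 had 6.61 RPKM in replicate 1 (10.9 to 12.1), Cdh7 0.274 RPKM in replicate 3 (0 to 0.0249) and Robo1 4.62 RPKM in replicate 4 (3.62 to 3.74).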

How the results depend on the processing

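Of 69 calls of named genes, 36 were kept under every one of the 20 alternatives that applied to single genes and 33 were lost under at least 1, with none reversed. The most were lost with only the 2 groups compared in the fit (25), without progenitor replicate 2, 3 or 4 (18, 18 and 17) and with library-size scaling (13). The cause was not tested.

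In stem against progenitor (3 members called, 0 higher and 3 lower) voom called 5, all lower (8.33% of all genes were called), the fit with only the 2 groups 13, all lower (16.9%), and the fit without progenitor and niche replicate 1 called 10, with 1 higher and 9 lower (13.7%). The median of -0.43 moved to -1.20 with voom. In stem against niche (35 called, 3 higher and 32 lower) the fit with only the 2 groups called 22, with 1 higher and 21 lower (14.7% of all genes), and 5 were higher with library-size scaling (24.1% of all genes higher) and 5 with voom (10.5%), whose median was -1.97, against -0.90. In progenitor against niche (18 called, 2 higher and 16 lower) the fit without progenitor and niche replicate 1 called 36, with 6 higher and 30 lower (23.9% of all genes), and the fit with only the 2 groups called 7, with 0 higher and 7 lower (6.33%). There 8 were higher with library-size scaling (18.2% of all genes higher), 5 with voom (6.87%) and 1 without the filter (4.05%).

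Leaving out each library in turn gave 2 to 10 called (0 higher, 2 to 10 lower, median -0.54 to -0.36) in stem against progenitor. It gave 27 to 46 called (1 to 4 higher, 26 to 42 lower, median -1.19 to -0.80) in stem against niche and 9 to 35 (0 to 5 higher, 9 to 31 lower, median -0.65 to -0.23) in progenitor against niche. The F test called 24 to 45. The share of all genes called moved as well. Without niche replicate 1 it was 13.3%, 29.7% and 19.8% in these 3 comparisons, and without progenitor replicate 3 it was 4.84%, 18.4% and 6.5%. For the F test the all-gene share was not counted in these fits or with the replicate block.

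With the replicate block, 4, 35 and 20 members were called in stem against progenitor, stem against niche and progenitor against niche, and 32 in the F test. Of all genes, 7.26%, 21.7% and 11.3% were called in these comparisons. The block added Chl1 in the first comparison, Pcdha11 in the second and Cdh12 and Pcdhb22 in the third, and lost Sema3d in the second. Among the pathway genes it lost Ank3 and Tenm4 in the first, and it changed no other call of a named gene.

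Without the 5 members matched by name only, 3, 34 and 18 members were called, where 7.11%, 21.6% and 11.5% of all genes were called. Counts near 0 rest on few reads, since 3 reads were worth up to 0.395 CPM.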
